A study of Mus musculus with 2 samples.

Results

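A set of 9 abundant or well known long noncoding RNAs was examined in single cells of the adult mouse mammary epithelium. They were listed by name, with no limit on a measured value, and are Malat1, Neat1, Kcnq1ot1, Gas5, Snhg1, Snhg6, Snhg8, Snhg12 and Meg3. Of these 9 genes, 6 have a row among the 27998 genes of the count tables, whereas Gas5, Snhg1 and Snhg8 have no row in the gene tables used here, so no level is given for them. The 2 samples were 10X Chromium libraries, in which each cell carries a barcode and each RNA molecule a tag (a UMI, counted once). One library held 4771 sorted basal cells (Lin-CD29hiCD24+) and the other 3302 total epithelial cells (Lin-CD24+), both from untreated FVB/NJ mice, an inbred strain, at 10 weeks of age, with 4 mice pooled per library. The Lin- gate removes cells with blood and endothelial surface proteins and leaves fibroblasts to be removed by CD24.

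The cells of the total epithelium were split by their transcripts. Cells with at least 10 UMIs summed over Krt5, Krt14 and Acta2 were called basal (1280 cells), and cells with at least 10 UMIs over Prlr, Stc2 and Gpx3 were called mature luminal, ML (1133 cells). The other cells with at least 3 UMIs over Krt8, Krt18 and Krt19 were called luminal progenitor, LP (766 cells). A further 26 cells passed both the basal and the ML limit and 97 passed none. Near the limits, 16 cells had a basal sum of 8 or 9 and 14 had 10 or 11, and 38 cells had an ML sum of 8 or 9 and 50 had 10 or 11. The 10 basal markers summed to 48546 CPM (UMIs of a gene per 1000000 UMIs summed) in the basal class, 233 in LP and 139 in ML. The 8 LP markers summed to 57218 CPM in LP cells, 2644 in basal and 5292 in ML cells, and the 9 ML markers to 21574 CPM in ML cells against 149 and 913 in basal and LP cells. In the sorted basal library the basal markers summed to 27073 CPM, and 3918 of its cells (82.1%) had at least 3 UMIs over Krt5, Krt14 and Acta2.

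Both libraries stood apart in depth. Cells of the total epithelium had 802 to 12967 UMIs, with medians of 1820 (basal), 2483.5 (LP) and 3403 (ML), whereas sorted basal cells had 137 to 1946 with a median of 487. Ribosomal protein genes took 9.48% of the UMIs of total epithelium and 4.33% of those of the sorted library. The libraries shared 28 cell barcodes. With 1 library per sample there is no replicate, the spread between mice is not known, and no test between conditions was possible. Levels are therefore given as CPM of the summed UMIs with exact Poisson 95% intervals, and shares of cells with exact binomial 95% intervals, both of which cover counting error only. Gate, depth and library cannot be told apart between the 2 libraries.

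Long noncoding RNAs are transcribed and often spliced like messenger RNAs but encode no protein. Malat1 is retained in nuclear speckles, where splicing factors gather, and Neat1 is the scaffold of paraspeckles, nuclear bodies built with the proteins Sfpq, Nono and Pspc1. Kcnq1ot1 and Meg3 are imprinted, that is, transcribed from 1 parental copy: Kcnq1ot1 from the paternal copy, where it silences neighbouring genes such as Cdkn1c in cis, and Meg3 from the maternal copy of the Dlk1-Dio3 region. Gas5 and the Snhg genes are hosts whose introns release small nucleolar RNAs (snoRNAs), the guides of ribosomal RNA modification, and their spliced transcripts are short-lived when translated.

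In the GENCODE M21 annotation of GRCm38 (mm10), the build named in the submitters' processing notes, Malat1 lies at chr19:5795690-5802672 and Neat1 beside it at chr19:5824708-5845478, both on the minus strand and both annotated as lincRNA. Kcnq1ot1 lies at chr7:143203458-143296549 on the minus strand and is annotated as antisense, since it runs against Kcnq1. Meg3 (lincRNA) lies at chr12:109541001-109571726 on the plus strand. Snhg6 (lincRNA) lies at chr1:9941959-9944118 on the minus strand and holds 1 annotated snoRNA gene, Snord87. Snhg12 (lincRNA) lies at chr4:132308623-132311024 on the plus strand with 5 annotated snoRNA genes. Gas5 (chr1:161034422-161038539), Snhg1 (chr19:8723475-8726443) and Snhg8 (chr3:123507552-123508404) are all annotated as processed_transcript. Of the 790 genes of that type, 50 have a row in the count tables, against 3502 of 5854 lincRNA genes.

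Molecules were captured by priming on runs of A, so both the annotated 3′ ends and internal runs of A may bear on the counts. The last 50 bases of transcripts of the 4 RNAs with the most UMIs are shown 5′ to 3′ as DNA letters, with the polyadenylation signal AATAAA in capitals where it occurs.
Malat1-201: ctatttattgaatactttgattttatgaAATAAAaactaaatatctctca
Neat1-202: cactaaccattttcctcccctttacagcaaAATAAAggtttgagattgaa
Neat1-201: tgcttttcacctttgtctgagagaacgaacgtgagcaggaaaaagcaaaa
Kcnq1ot1-201: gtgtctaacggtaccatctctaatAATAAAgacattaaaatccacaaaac
Meg3-209: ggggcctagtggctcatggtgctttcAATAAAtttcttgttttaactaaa
AATAAA was searched on the transcript strand only and occurs in the last 50 bases of 26.6% of all 141767 annotated transcripts. The short Neat1-202 (3004 bases) ends with the signal and the long Neat1-201 (20771 bases) does not. Kcnq1ot1-201, unspliced and 93092 bases long, holds 30 internal runs of at least 8 A, the longest of 41, whereas Malat1-201 holds 1 such run, Meg3-209 holds 7 and Neat1-201 holds 0. Which of these stretches the counted reads came from is not recorded in the tables.

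The other end of the RNA bears on the snoRNA hosts, some of which have annotated transcripts that open with a run of C and T. The first 24 bases of the annotated transcript with the longest such run are shown for each member with an opening C and at least 4 further C or T, the run in capitals.
Snhg6-203: CTTTCTCggcagcgccgtagagcg
Snhg12-210: CCTTTCTCgcttcatccgcggtcc
Gas5-203: CCCCTCagcctgtactcctcaggg
Snhg8-201: CCCTCgcgcgcaggctcttgggag
Meg3-204: CCCCCCCCCCCCgcctccccaaac
The start was found in 1 of 5 annotated transcripts of Snhg6, 3 of 10 of Snhg12, 5 of 25 of Gas5 and 1 of 3 of Snhg8. It was also found in 1 of 11 of Meg3, which hosts no annotated snoRNA within its bounds, and in 0 of 18 of the host Snhg1. Genes with many transcripts have more chances of a match. At least 1 such transcript was found for 11.5% of the 15057 genes with 3 or more annotated transcripts. It was found for 35.3% of 102 protein-coding genes whose names open like those of ribosomal proteins (Rpl or Rps and a digit, Rplp or Rpsa). That match by name also takes in kinase genes named after a ribosomal protein, so the share is not one of ribosomal protein genes alone. A start of this kind is known from the 5′TOP messenger RNAs of the translation machinery, but the match is only a description of the annotated letters.

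Malat1 was among the most abundant RNAs of every class, and its summed level differed little between the 3 classes. Its level was 11153 CPM in basal cells (interval 11026 to 11281, from 29575 UMIs), 9790.4 CPM in LP cells (9659 to 9923, 21133 UMIs) and 10175 CPM in ML cells (10078 to 10273, 42053 UMIs). It ranked 5 among all genes by UMIs in each class. Malat1 was found in 99.9% of basal cells, 99.7% of LP cells and 99.6% of ML cells, with a median of 21, 26 and 36 UMIs per cell. In the sorted basal library its level was 6976 CPM (6873 to 7081, 17362 UMIs), where it ranked 9 and was found in 87.5% of cells with a median of 3 UMIs per cell.

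The sum over a class weights deep cells most, and the Malat1 share fell as depth rose in every class. In basal cells its level was 14275 CPM at 800 to under 1500 UMIs per cell (404 cells), 11691 CPM at 1500 to under 2500, 9951 CPM at 2500 to under 4000 and 7527 CPM at 4000 UMIs or more (65 cells). In LP cells it fell over the same bands from 18087 to 12379, 9816 and 6304 CPM, and in ML cells from 15523 to 14728, 11880.1 and 7981 CPM. The number of Malat1 UMIs per cell nevertheless rose with depth, from a median of 16 to 38 in basal, 18 to 34.5 in LP and 14.5 to 42 in ML cells. Across cells thinned to 400 UMIs, Pearson's r of Malat1 with the cell's full UMI count was -0.22 in basal (1280 cells), -0.39 in LP (766) and -0.33 in ML cells (1133), a description over cells of 1 library in which the total also sets what was thinned.

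Matching the depth by bands changed the order of the classes. The ML class, 1.10-fold below basal over all cells (interval 1.08 to 1.11), lay above basal in each of the 4 bands. LP cells were 1.14-fold below basal over all cells (1.12 to 1.16), but 1.27-fold above basal at 800 to under 1500 UMIs (1.21 to 1.32) and below it at 2500 UMIs and more. With every cell thinned to 400 UMIs the ratio of LP to basal was 0.98 (0.94 to 1.02) and that of ML to basal 0.97 (0.933 to 1.005). Thinning gives every cell equal weight but keeps each cell's expected Malat1 share, so these 400-UMI ratios are not matched for depth. No order of the 3 classes in Malat1 held at every depth.

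**Figure D1:**
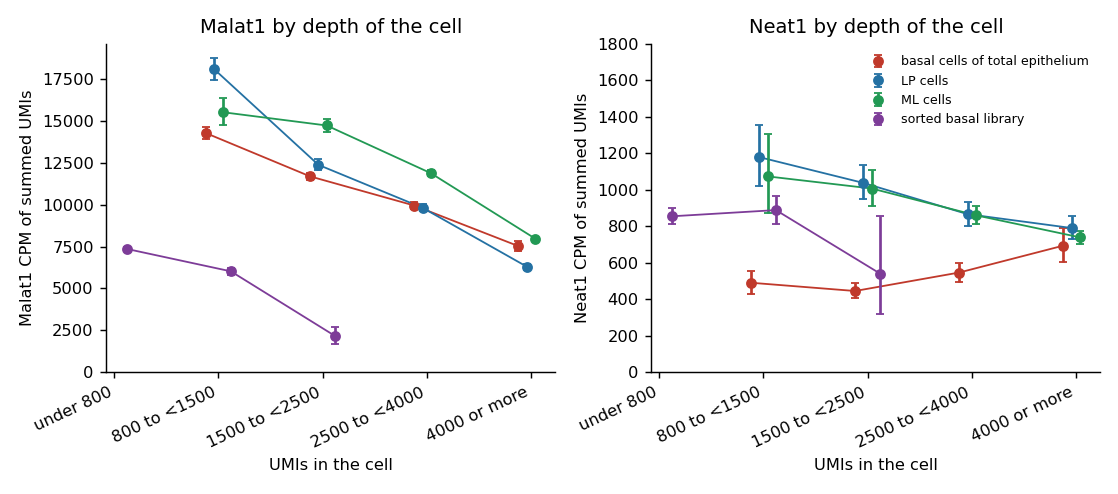
Malat1 (left) and Neat1 (right) level, as CPM of summed UMIs, against the number of UMIs in the cell, for the 3 classes of total epithelium and the sorted basal library. Points are sums over the cells of a band and bars are Poisson 95% intervals, so bars cover counting error only. Malat1 falls with depth in every group, from 14275 to 7527 CPM in basal cells, and the sorted library lies below the classes in the bands it shares with them. Neat1 in basal cells lies below LP and ML cells in each band.

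Between the 2 basal populations, Malat1 was 1.60-fold lower in the sorted library than in the basal class of total epithelium (1.57 to 1.63). The difference was larger within a shared band of depth. At 800 to under 1500 UMIs per cell, the range that both held in number, the sorted library had 6020.4 CPM (606 cells) and the basal class 14275 CPM. That was a 2.37-fold difference (2.28 to 2.47). The band takes sorted cells from the deep end of their library (median 487 UMIs) and basal cells from the shallow end (median 1820). The Malat1 share fell with depth in both, so the 2.37-fold value sets unlike ends side by side. With cells of at least 400 UMIs thinned to 400, Malat1 was 1.73-fold lower in the sorted library (1.67 to 1.78). That left out 1594 of the 4771 sorted cells, the shallowest, and 0 of the 1280 basal cells. With only the sorted cells that had at least 3 UMIs over Krt5, Krt14 and Acta2, Malat1 was 1.64-fold lower (1.61 to 1.67). Under TMM scaling it was 2.12-fold lower (2.08 to 2.16). The ribosomal protein share also differed between the libraries, and with the ribosomal protein and mitochondrial genes left out of both totals Malat1 was 1.68-fold lower (1.64 to 1.71).

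Malat1 varied between cells beyond sampling. With each cell thinned to 400 UMIs, Malat1 had a mean of 4.80 UMIs in basal cells, 4.71 in LP and 4.65 in ML cells. The ratio of variance to mean, which is 1 for Poisson sampling, was 1.98 in basal (rank 27 of 1288 genes ranked, median 1.06), 2.99 in LP (rank 35 of 1145, median 1.07) and 2.34 in ML cells (rank 30 of 1333, median 1.05). Genes were ranked from a mean of 0.05 UMIs and were not matched for level. The ratio can rise with the mean, so these ranks do not show Malat1 to be variable for its abundance. The fall of its share with depth within a class also enters this variance. The central 80% of cells held 2 to 8 UMIs in basal and 1 to 9 in both luminal classes, so the luminal classes were the wider. In the sorted library the ratio was 2.28, at rank 152 of 1399, and the median gene there was itself at 1.53. Counting intervals, which assume a ratio of 1, are thus too narrow for Malat1 in the 3 classes, and for the sorted library as a whole. They are also too narrow for Meg3 in ML cells, at a ratio of 4.19. The ratio was 1.21 and 1.27 for Neat1 in LP and ML cells and 1.17 for Kcnq1ot1 in basal cells. The other members and classes had ratios of 0.98 to 1.10.

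**Figure D2:**
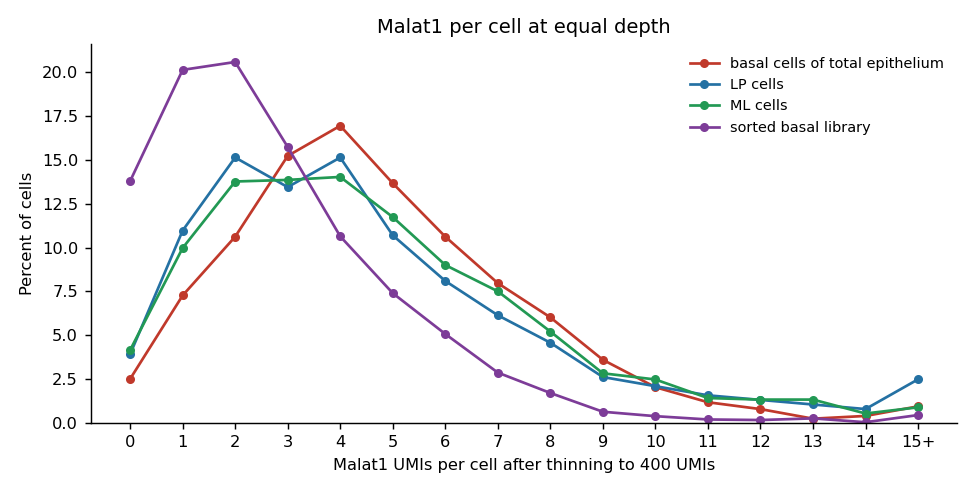
Percent of cells (vertical axis) with each number of Malat1 UMIs after thinning every cell to 400 UMIs (horizontal axis, the last point 15 or more), for the 3 classes and the sorted basal library, in which 1594 cells under 400 UMIs were left out. The 3 classes have a median of 4 UMIs and the sorted library a median of 2, with 13.8% of its cells at 0.

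Cells without a single Malat1 UMI were rare. They numbered 1 among 1280 basal cells and 2 among 766 LP cells, and 5 among 1133 ML cells, the last with only 901 to 1190 UMIs. Among the 97 cells that passed no class limit there were 6 (6.19%, interval 2.30 to 12.98), with 1149 to 8087 UMIs. In the sorted library there were 594 such cells (12.5%), with a median of 366.5 UMIs.

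Neat1 was lower in basal than in luminal cells of the same library. Its level was 514 CPM in basal cells (487 to 542, 1362 UMIs), 902 CPM in LP (862 to 943, 1947 UMIs) and 816 CPM in ML cells (788 to 844, 3371 UMIs). LP cells had 1.76-fold the basal level (1.64 to 1.88) and ML cells 1.59-fold (1.49 to 1.69). The order of LP and ML was closer, with ML 1.11-fold below LP (1.05 to 1.16). Basal cells were lowest in each of the 4 depth bands, with 491 CPM at 800 to under 1500 UMIs against 1179.6 in LP and 1074 in ML cells. At 4000 UMIs or more they had 694 CPM (607 to 791), against 791 in LP (728 to 856) and 739 in ML cells (704 to 776). The intervals overlap in that deepest band, so a difference was not detectable there. The gap thus narrowed with depth. In the shallowest band the ratios were 2.40 for LP (1.98 to 2.91) and 2.19 for ML (1.72 to 2.77), past 2-fold.

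At least 1 Neat1 UMI was found in 52.8% of basal cells, while LP and ML cells reached 78.6% and 76.5%. After thinning to 400 UMIs the shares were 17.3% (15.3 to 19.5), 28.2% (25.04 to 31.5) and 26.2% (23.7 to 28.9). No class is known to lack Neat1, so no share from a cell type without the gene could be set beside these. In the sorted library Neat1 was at 859 CPM (823 to 896, 2137 UMIs) and, after thinning, in 24.6% of the 3177 cells with 400 UMIs or more. It was thus 1.67-fold above the basal class of total epithelium (1.56 to 1.79), the opposite direction to Malat1. Under TMM scaling Neat1 was 1.26-fold above the basal class (1.18 to 1.35). Over the 9269 genes compared between these groups, the median log2 ratio was 0.46, against 0.74 for Neat1 and -0.68 for Malat1.

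Across cells Malat1 and Neat1 moved together only weakly. Pearson's r of their thinned counts was 0.04 in the basal class, 0.13 in LP and 0.11 in ML, which in counts this sparse is no finding. Thinned Malat1 counts had an r with the summed mitochondrial genes, a sign of cell quality, of -0.02 in the basal class, 0.30 in LP and 0.16 in ML, and the part of cell quality in the Malat1 values was not tested. Among 2038 genes found in at least 10% of the cells of each class, those most like Neat1 by the mean of the 3 within-class correlations of log counts per 10000 were Jund, Lmna, Klf6, Fosb and Atf3. Jund, Klf6, Fosb and Atf3 are early-response transcription factors and Lmna encodes the nuclear lamins A and C. Their mean r was 0.15 to 0.19, with r in ML cells of 0.25 to 0.32 and in basal cells of 0.04 to 0.09. Those most like Malat1 were H3f3b, Fosb, Fos, Ubb and Junb, with a mean r of 0.12 to 0.17. Fosb was on both lists. These are descriptions over cells that share a library, and depth differs between the cells.

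Kcnq1ot1 was higher in basal than in luminal cells when all cells were summed. Its level was 102 CPM in basal cells (90.03 to 115, 270 UMIs), 54.7 CPM in LP (45.2 to 65.5, 118 UMIs) and 45.7 CPM in ML cells (39.4 to 52.7, 189 UMIs). It was 1.86-fold lower in LP than in basal cells (1.49 to 2.33) and 2.23-fold lower in ML cells (1.84 to 2.70), while LP and ML differed by 1.195-fold with an interval of 0.94 to 1.51 that includes 1. At least 1 UMI was found in 15.1% of basal, 12.4% of LP and 12.97% of the deeper ML cells. After thinning to 400 UMIs the shares were 3.36% in basal cells (2.44 to 4.499), 2.22% in LP (1.298 to 3.53) and 1.5% in ML cells (0.876 to 2.39). Cells with 2 or more UMIs held 124 of the 270 UMIs in the basal class (47 cells), 39 of 118 in LP (16 cells) and 72 of 189 in ML (30 cells). The highest basal cell held 12.

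The Kcnq1ot1 difference between classes was about as large with cells weighted equally by thinning, but not in the shallowest cells. With every cell thinned to 400 UMIs, Kcnq1ot1 was 2.36-fold lower in ML than in basal cells (1.35 to 4.31) and 1.69-fold lower in LP cells (0.954 to 3.13), the latter an interval that includes 1. In basal cells its level rose over the depth bands, from 63.1 to 93.9, 125 and 132 CPM, whereas in ML cells it fell from 74.4 to 65.4, 49.0 and 38.7 CPM. In cells of 800 to under 1500 UMIs the ratio of ML to basal was 1.18 with an interval of 0.44 to 2.73, from 7 and 31 UMIs, so that at this depth the difference between classes was not detectable. In the sorted basal library Kcnq1ot1 was at 76.7 CPM (66.2 to 88.4, 191 UMIs), 1.33-fold below the basal class (1.10 to 1.61). In the 800 to under 1500 band it was instead 1.82-fold above it (1.17 to 2.88). That band sets deep sorted cells beside shallow basal cells. Thinned to 400 UMIs, Kcnq1ot1 was 1.16-fold lower in the sorted library, with an interval of 0.80 to 1.64 that includes 1.

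The genes around Kcnq1ot1 did not follow 1 direction. Cdkn1c, a cyclin-dependent kinase inhibitor, was at 50.2 CPM in basal cells (133 UMIs), 3.24 in LP (7 UMIs), 5.08 in ML (21 UMIs) and 94.8 CPM in the sorted library (236 UMIs), so the basal groups were high in both Cdkn1c and Kcnq1ot1. Slc22a18, a membrane transporter of the same imprinted region, had 0 UMIs in basal cells, which allows up to 1.13 CPM (3 UMIs of the class total), against 10.7 CPM in LP and 40.4 CPM in ML cells. Kcnq1 itself, the potassium channel on the opposite strand, had 0 UMIs in the basal class, 9 in LP cells and 2 in ML cells. Whether the counting used the strand is not given in the sources used here. Cd81, a tetraspanin, was 3.07-fold higher in LP than in basal cells (2.96 to 3.19). Of 10 imprinted neighbours listed for Kcnq1ot1 and Meg3 together, 3 had 30 UMIs or more in LP and basal cells together. Of those, 1 was more than 2-fold higher in LP and 2 lower, against 11.6% and 21.1% of all 8653 genes compared.

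Meg3 was a basal RNA within the epithelium once cells with fibroblast transcripts were set apart. Over whole classes its level was 71.3 CPM in basal cells (61.5 to 82.2, 189 UMIs in 118 cells), 2.32 CPM in LP (0.75 to 5.41, 5 UMIs in 2 cells) and 22.3 CPM in ML cells (17.9 to 27.3, 92 UMIs in 11 cells). The ML UMIs were unevenly held, with 43 of the 92 in 1 cell. The sorted basal library had 74.3 CPM (64.0 to 85.9, 185 UMIs in 115 cells), 1.04-fold the basal class (0.85 to 1.28). At 800 to under 1500 UMIs, however, the sorted library was 2.62-fold below the basal class (1.59 to 4.45), from 24 and 53 UMIs. That band sets deep sorted cells beside shallow basal cells. Thinned to 400 UMIs, the ratio of the sorted library to the basal class was 1.13 (0.75 to 1.75). Meg3 was found in 9.22% of basal cells (7.69 to 10.9) against 0.261% of LP cells (0.032 to 0.94), although LP cells were the deeper, with a median of 2483.5 against 1820 UMIs.

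Fibroblast transcripts moved with Meg3 in the ML class. Of the 9 fibroblast markers, Dcn was left out of this split since it alone gave 1281 of the 1547 CPM that the list summed to in ML cells. In the ML class, 14 cells had at least 3 UMIs over the other 8 markers, and these 14 cells held 91 of the 92 Meg3 UMIs, a level of 1879 CPM. The other 1119 ML cells held 1 Meg3 UMI, or 0.24 CPM (0.0062 to 1.36). The 14 cells had a median of 75.5 fibroblast marker UMIs, 28 Gpx3 UMIs, 1 UMI over Prlr and Stc2 and 1 UMI over Krt8, Krt18 and Krt19, and 9 of them were under the luminal limit of 3 keratin UMIs. By their keratins those 9 cells went against the ML name that the Gpx3 count gave them. These 9 held 52 of the 91 Meg3 UMIs. The 14 cells ranged from 0 to 217 keratin UMIs and from 0 to 39 over Prlr and Stc2, so not all of them lacked luminal transcripts. In LP, 2 cells with at least 3 of these fibroblast UMIs held 4 of 5 Meg3 UMIs.

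In the basal groups most Meg3 UMIs lay outside cells with fibroblast transcripts, though the level was higher in those cells. The 8 basal cells with at least 3 of these fibroblast UMIs held 4 Meg3 UMIs, a level of 266 CPM (72.4 to 681). The other 1272 held 185, a level of 70.2 CPM (60.4 to 81.0). In the sorted library, 89 cells with fibroblast UMIs held 21 of the 185, a level of 531 CPM (328 to 811). The other 4682 cells had 67.0 CPM (57.1 to 78.0). Dlk1, a protein-coding neighbour of Meg3 expressed from the other parental copy, had 9 UMIs in basal cells, 0 in LP and 0 in ML cells, and 9 in the sorted library. Mirg, the microRNA host downstream of Meg3, had 4 UMIs in ML and 0 in basal and LP cells.

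**Figure D3:**
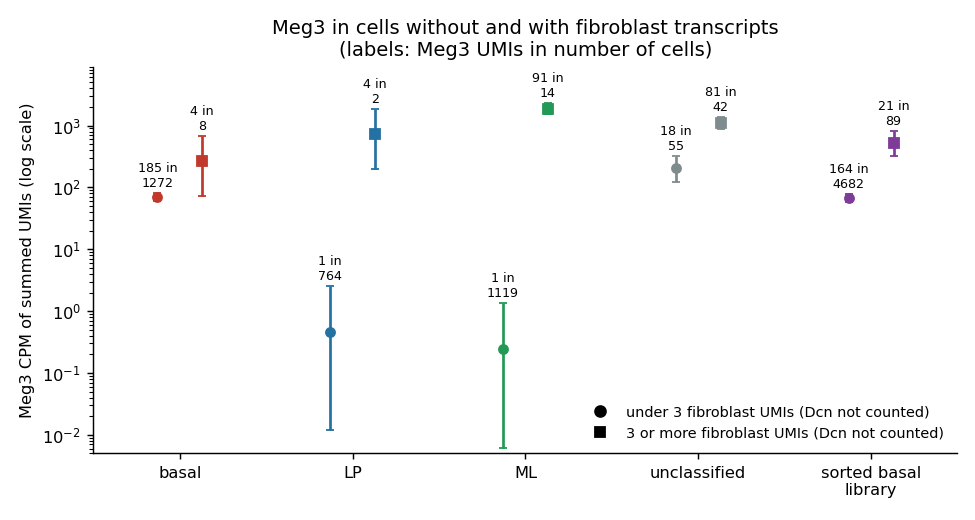
Meg3 level (CPM of summed UMIs, log axis) in cells with under 3 (circles) and 3 or more (squares) UMIs over 8 fibroblast markers, for each class, the cells in no class and the sorted basal library. Bars are Poisson 95% intervals and labels give Meg3 UMIs and the number of cells. Among cells with few fibroblast UMIs, the basal groups are at 70.2 and 67.0 CPM and LP and ML cells at 0.46 and 0.24 CPM.

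The 2 snoRNA hosts with a row were scarce. Snhg6 had 27 UMIs in basal cells (10.2 CPM, 6.7 to 14.8), 10 in LP (4.63 CPM, 2.2 to 8.5), 37 in ML (8.95 CPM, 6.3 to 12.3) and 24 in the sorted library (9.64 CPM, 6.2 to 14.3). LP cells were 2.20-fold below basal, with an interval of 1.03 to 5.09, and under 2-fold without the cells with fibroblast transcripts (1.96-fold) or under TMM scaling (1.92-fold). Snhg12 had 2, 3, 8 and 5 UMIs in the same groups and stayed under the 30 UMIs that a pair of groups needed to be compared. The 5 Snhg12 UMIs of the sorted library lay in 3 cells.

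**Figure D4:**
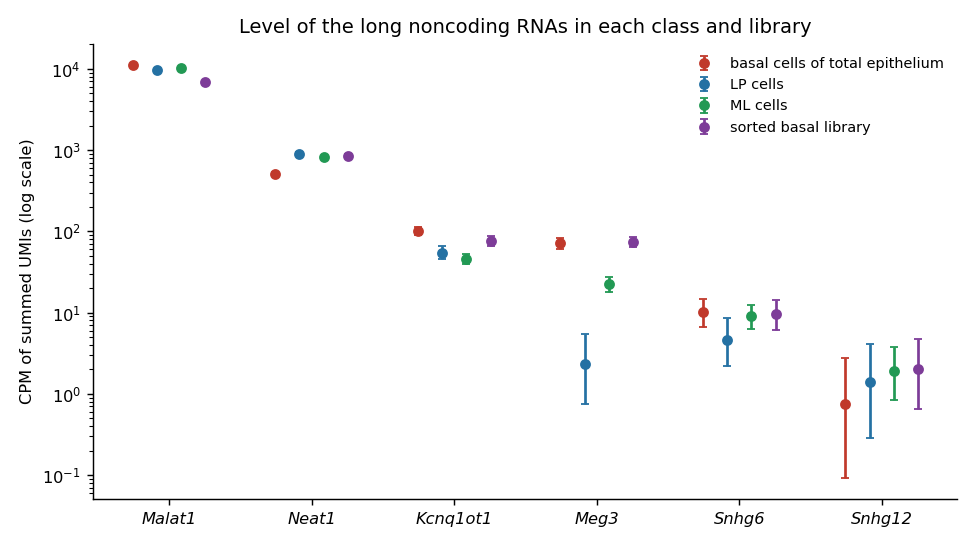
Level (CPM of summed UMIs, log axis) of the 6 long noncoding RNAs with a row in the tables, in the 3 classes of total epithelium and in the sorted basal library. Bars are Poisson 95% intervals. Levels run from 11153 CPM for Malat1 to 0.75 CPM for Snhg12 in basal cells, and Meg3 in LP cells is at 2.32 CPM.

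Counted over the 5 members that could be compared, at most 2 passed a 2-fold difference in any comparison. Their counts are given beside the shares of all genes with at least 30 UMIs in both groups together. With only 5 members, no departure from those shares is read from the counts. Between LP and basal cells 0 members were higher and 2 were lower by 2-fold or more (Snhg6 and Meg3), while 11.6% of 8653 genes were higher and 21.1% lower. Between ML and basal cells 0 were higher and 2 lower (Kcnq1ot1 and Meg3), against 19.3% and 19.1% of 9521 genes. Between ML and LP cells 1 was higher (Meg3) and 0 lower, against 17% and 9.75% of 8950 genes, and without the cells with fibroblast transcripts Meg3 stood at 1 UMI in each class and that count was 0. Between the sorted library and the basal class 0 were higher and 0 lower, against 28.6% and 15.8% of 9269 genes. Between the sorted and the total epithelium library 0 were higher and 0 lower, against 33.4% and 22.7% of 10959 genes. The median log2 ratio of all genes compared was -0.22, 0.05, 0.29, 0.46 and 0.40 in these 5 comparisons, in the order given, so the zero of the scale was not where most genes lay. TMM scaling, which centres on the bulk of genes, shifted all log2 ratios by 0.20, -0.06, -0.29, -0.41 and -0.42. Under it Neat1 was 2.01-fold higher in LP than in basal cells (1.88 to 2.16).

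**Figure D5:**
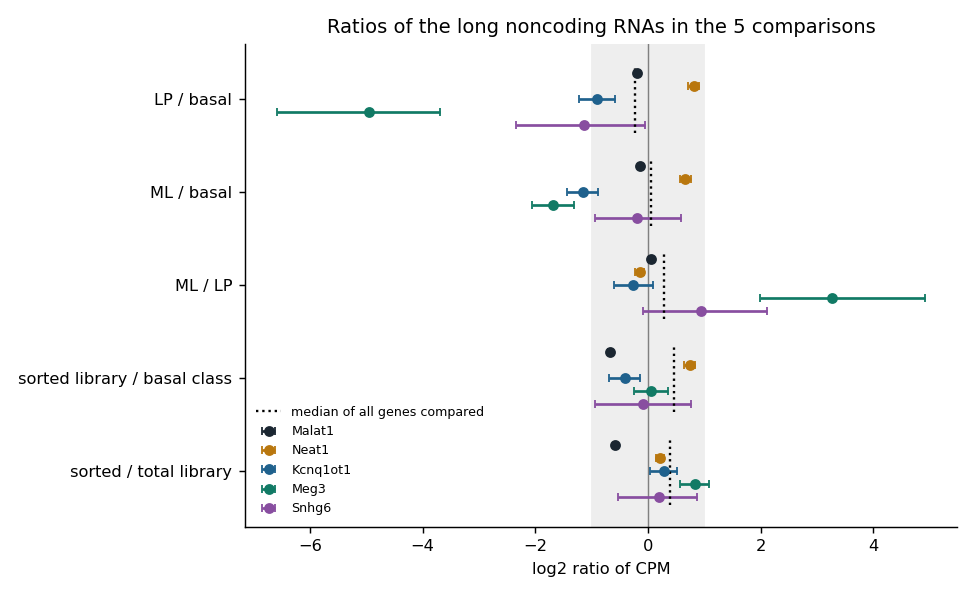
Log2 ratio of CPM for 5 long noncoding RNAs in the 5 comparisons, with 95% counting intervals. The grey band marks ratios under 2-fold and the dotted line the median of all genes compared. Meg3 leaves the band furthest, at -4.94 in LP against basal cells, and Malat1 and Neat1 lie on opposite sides of 0 in the sorted library against the basal class.

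Other long noncoding RNAs, from a list of 39 names of which 18 have a row, gave some of the sharper class differences. Snhg18 had 43 UMIs in basal cells, 3 in LP and 1 in ML cells, and 38 in the sorted library, so both basal groups held it. The ratio of LP to basal was 0.086 (0.017 to 0.27). Snhg11 and Pvt1 went the other way, with 87 and 100 UMIs in ML cells against 4 and 20 in basal cells, or 13.96-fold (5.26 to 52.4) and 3.21-fold (1.97 to 5.48) higher in CPM. Snhg20 was 2.81-fold higher in LP (1.46 to 5.70) and 2.52-fold higher in ML (1.38 to 4.91) than in basal cells. Of this list, 5 genes could be compared between LP and basal cells, with 1 higher and 3 lower by 2-fold or more, against 11.6% and 21.1% of all genes (median log2 ratio -1.05, against -0.22 over all genes). Between ML and basal cells 8 could be compared, with 3 higher and 2 lower, against 19.3% and 19.1% (median -0.11 against 0.05). Xist, which coats the inactive X chromosome, was at 105 CPM in the basal class, 106 in the LP class, 146 in the ML class and 219 CPM in the sorted library.

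The protein partners of Malat1 and Neat1 did not move in 1 direction across the classes. All 16 paraspeckle and speckle proteins listed could be compared. Between LP and basal cells 0 passed 2-fold in either direction, against 11.6% and 21.1% of all genes (median log2 ratio -0.34 against -0.22 over all genes), and between ML and basal cells 0 were higher and 2 lower, against 19.3% and 19.1% (-0.27 against 0.05). Those 2 were Pspc1, 2.24-fold lower (1.68 to 3.01), and Sfpq, 2.19-fold lower (1.87 to 2.58), both core paraspeckle proteins, in a class where Neat1 was 1.59-fold higher. Sfpq was at 437 CPM in the sorted library against 141 CPM in the basal class, 3.11-fold higher (2.76 to 3.51), and there 3 of the 16 were higher and 1 lower, against 28.6% and 15.8% of all genes. Nono, their partner, went with Neat1 in being 1.36-fold higher in LP (1.18 to 1.55) and 1.84-fold higher in ML than in basal cells (1.64 to 2.06). So did Srsf5, a splicing factor, 1.65-fold higher in LP (1.54 to 1.78) and 1.23-fold higher in ML cells (1.15 to 1.32).

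Among the translation and snoRNA-protein partners of the host genes, the basal class stood out in Nop58, a core protein of the box C/D snoRNA particles. Nop58 was at 751 CPM in basal cells, 154 in LP, 145 in ML cells and 678 CPM in the sorted library, 4.87-fold lower in LP (4.33 to 5.48) and 5.18-fold lower in ML (4.73 to 5.69) than in basal cells. Nhp2l1, a protein of the same particles, was 2.71-fold (2.44 to 3.02) and 2.34-fold lower (2.16 to 2.54). The sorted library did not share that basal level of Nhp2l1, with 247 CPM against 571 in the basal class, 210 in LP and 244 in ML cells. Nop56, the partner of Nop58, was 1.94-fold lower in LP than in basal cells (1.60 to 2.36). It was at 195 CPM in the sorted library against 135 CPM in the basal class. Of the 14 genes of this list with a row, 13 could be compared, with 0 higher and 2 lower in LP and also 0 and 2 in ML cells, no larger a share than the 21.1% and 19.1% of all genes that were lower. Of the 99 ribosomal protein genes, 80 could be compared and 0 were lower by 2-fold in LP or ML against basal cells, with 0 and 2 higher. Between the sorted library and the basal class, 16 of 82 were higher and 18 lower, while over all genes 28.6% were higher and 15.8% lower (median log2 ratio -0.02, against 0.46 over all genes).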

How the data were processed

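Both 10X Chromium libraries of adult mouse mammary cells were used, 1 library per sample, so groups were the 2 labelled samples and 3 cell classes within 1 of them. The authors deposited raw counts, whole-number UMIs per gene and cell without normalization, for 4771 and 3302 cells. The submitters' processing notes name Cell Ranger 1.2.1 and mm10, while the methods of the study name Cell Ranger 2.0. Cell calling and UMI collapse were part of that step and cannot be repeated. All deposited cells were kept and no doublet caller was run, since the class limits set apart the 26 cells over 2 limits, and an alternative left out cells over 2 times the median UMIs.

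UMIs were summed per class or library and divided by the total (CPM). Ratios carry an exact Clopper-Pearson 95% interval on the split of UMIs. Genes with at least 30 UMIs in both groups together were compared, and past the limit means 2-fold. Shares and variances used cells thinned without replacement to 400 UMIs (seed 1), which left out 1594 sorted cells. Thinning weights cells equally but keeps each cell's expected share of a gene, so ratios of thinned counts are not matched for the cells' original depth. At the median depth, 3 UMIs are 0.616% of a sorted cell and 0.124% of a total epithelial cell. The code was tested on simulated data. Python 3.11.15, numpy 2.4.6, scipy 1.17.1 and matplotlib 3.10.9 were used, with edgeR 4.0.16 in R 4.3.3 for TMM factors alone. Alternatives changed the scaling, minimum, fold limit, class limits, cells kept and depth.

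The members, lists and class rule were chosen with earlier results of these data known. Named genes were the 9 members, of each list the 3 largest ratios each way among genes that passed 30 UMIs, neighbours whose absence bears on a member, and the 5 genes most alike to Malat1 and Neat1. The same rule for Gas5 could not be applied. Kcnq1, Dlk1 and Mirg were named for their place beside the members, and Xist came from the list of other long noncoding RNAs. Of the 27998 gene IDs, 27645 matched GENCODE M21. Transcript sequences are those of GENCODE M21 on GRCm38.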

Additional observations from a re-analysis of the deposited data

Results flagged for a closer look

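The 97 cells of total epithelium that passed no class limit enter no comparison above, and 2 of the long noncoding RNAs were high there. Malat1 was at 13827 CPM (13257 to 14416, 2212 UMIs), above its level in each class, where basal cells had 11153 CPM. These cells were shallow, with a median of 1184 UMIs, and basal cells of 800 to under 1500 UMIs had 14275 CPM. Meg3 was at 619 CPM (503 to 753, 99 UMIs in 35 cells), against 71.3 CPM in basal cells. The 9 fibroblast markers summed to 13690 CPM in the same cells, and 42 of the 97 had at least 3 UMIs of those markers other than Dcn and held 81 of the 99 Meg3 UMIs. The other 55 cells held 18, a level of 207 CPM. Markers of other cell types were high in the 97 cells too. The 5 pericyte markers summed to 2563 CPM, of which Des gave 2207, and the 5 endothelial markers to 719 CPM, against 4.36 to 59.8 CPM for these lists in the classes. Their part in the Malat1 and Meg3 values was not tested.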

How the results depend on the processing

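No paired analysis was possible because each group is 1 library, and for the same reason no replicate could be left out. In all, 14 alternative settings were listed at the start and 2 more were chosen after seeing the data, namely leaving out cells with 3 fibroblast UMIs other than Dcn and using only cells with 800 to under 1500 UMIs. Of 333 member ratios under alternatives, 309 kept their direction and 24 did not, and 270 stayed within the counting interval of the reported value. The only past-limit ratio that turned was Kcnq1ot1 in ML against basal cells, at 0.24 on the log2 scale in cells with 800 to under 1500 UMIs. Of 72 counts of members past the limit, 50 stayed within 1.5 times the reported count. For LP against basal cells the count of 2 became 1 with a minimum of 100 UMIs, without cells over 2 times the median UMIs, thinned to 400 UMIs or without the fibroblast-positive cells (Meg3 alone in each), and 4 at a limit of 1.5-fold. It was 2 under TMM scaling too, but with Neat1 in place of Snhg6. For ML against basal cells it became 1 with the mean of per-cell CPM. For ML against LP cells the count of 1 became 2 with the mean of per-cell CPM, at 1.5-fold, with class limits at 5 UMIs or without cells over 2 times the median UMIs, and 0 with a minimum of 100 UMIs, without cells with stromal or immune markers, without the fibroblast-positive cells, thinned to 400 UMIs or in cells with 800 to under 1500 UMIs. For the sorted library against the basal class the count of 0 became 1 under TMM scaling or with no minimum, and 2 at 1.5-fold or in cells with 800 to under 1500 UMIs. For the 2 libraries it became 1 at 1.5-fold and 1 without stromal or fibroblast-positive cells (Meg3). Where members fell under a stricter minimum, fewer genes were compared. Elsewhere the cause was not tested. Of 24 shares of cells, 17 lay outside the thinned interval when all UMIs were used.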
